A study of Mus musculus with 24 samples.

Results

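Oxidative phosphorylation genes of the nuclear genome were examined for promoter binding by 3 transcriptional regulators (TRs) in the developing mouse cortex. The genes were taken by symbol from the protein-coding genes of GENCODE vM21 on chromosomes 1 to 19, as those named Ndufa, Ndufb, Ndufc, Ndufs, or Ndufv with a number, Sdha to Sdhd, Uqcr, Cox4 to Cox8, or Atp5. The rule gave 81 of 20807 genes, 34 of complex I, 4 of complex II, 8 of complex III, 17 of complex IV, and 18 of complex V, and it used no measured value. These are gene models with 80 different symbols, since Atp5o has 2 models. Complexes were assigned by symbol alone, so these are not counts of established subunits. For example, Ndufa4 is counted with complex I by its name, although its product is now known as a subunit of complex IV.

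Chromatin immunoprecipitation sequencing (ChIP-seq) recovers DNA fragments bound by a protein with an antibody, and a peak is a place where their reads pile up above a background level. The targets were FOXP1, which is a forkhead factor, ARID1B, which belongs to the BAF complex that remodels nucleosomes, and TCF7L2, a nuclear effector of Wnt signaling that the sample labels call TCF4. Cortex of wild-type mice, taken at the embryonic (E) stages E15.5 and E18.5, which count days of gestation, gave 24 libraries, 12 of ChIP and 12 of input, and every target had 2 replicates of either kind at either age. The study's methods describe a call on merged replicates, whereas the sample records attach each list to replicate 1 of its TR and stage. The lists are read here as the merged calls, which their contents could not settle. Either way each TR and stage is 1 list, no list has a spread between replicates, and no difference between lists or genes was tested. Cortex is a mixture of progenitors, neurons, and other cells, and binding in many cells at a low level and in few cells at a high level cannot be told apart. Of 9 cortical marker genes, 8 had a promoter peak in all 6 lists, and of 9 markers of liver, muscle, and other tissues, 8 had none in any list and Ckm had weak peaks in 5, where 53.8% of all other genes had one in every list and 34.4% had none.

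The mitochondrial respiratory chain passes electrons from NADH and succinate to oxygen through complexes I to IV, pumping protons across the inner membrane, and complex V, the ATP synthase, uses the proton gradient to make ATP. Most subunits are encoded in the nucleus, imported, and assembled with the few subunits that the mitochondrial genome encodes, so many unlinked genes have to be expressed together. Some complex IV subunits have paralogs that replace the common form in particular tissues. Muscle and heart use Cox6a2, Cox7a1, and Cox8b, lung uses Cox4i2, and testis uses Cox6b2, Cox7b2, and Cox8c. Nuclear respiratory factor 1 (NRF1), the ETS factor GABP, and YY1 are known regulators of respiratory chain genes.

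The contrast between common and tissue-restricted forms was visible in the promoter sequences. The 150 bases before the RefSeq start of 3 pairs of complex IV paralogs follow, 5′ to 3′ in GRCm38.p6, with every CpG dinucleotide in capitals and the common form first.
Cox6b1, chr7:30626115-30626264, minus strand: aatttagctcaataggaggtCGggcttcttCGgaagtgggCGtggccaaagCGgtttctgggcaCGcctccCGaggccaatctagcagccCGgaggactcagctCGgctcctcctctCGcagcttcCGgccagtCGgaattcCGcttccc
Cox6b2, chr7:4753095-4753244, minus strand: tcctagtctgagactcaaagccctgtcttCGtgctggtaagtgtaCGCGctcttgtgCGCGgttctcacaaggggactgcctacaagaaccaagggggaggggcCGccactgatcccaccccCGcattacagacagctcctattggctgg
Cox7a2, chr9:79759854-79760003, minus strand: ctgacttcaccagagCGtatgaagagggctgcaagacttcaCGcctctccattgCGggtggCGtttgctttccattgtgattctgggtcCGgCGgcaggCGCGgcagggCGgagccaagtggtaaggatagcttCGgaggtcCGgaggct
Cox7a1, chr7:30184021-30184170, plus strand: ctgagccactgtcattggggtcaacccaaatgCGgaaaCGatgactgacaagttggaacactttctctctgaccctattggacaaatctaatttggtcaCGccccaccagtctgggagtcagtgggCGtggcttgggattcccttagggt
Cox8a, chr19:7217617-7217766, minus strand: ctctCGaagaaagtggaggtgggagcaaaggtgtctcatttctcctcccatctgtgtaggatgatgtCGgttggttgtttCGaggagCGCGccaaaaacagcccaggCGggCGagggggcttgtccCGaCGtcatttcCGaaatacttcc
Cox8b, chr7:140900447-140900596, minus strand: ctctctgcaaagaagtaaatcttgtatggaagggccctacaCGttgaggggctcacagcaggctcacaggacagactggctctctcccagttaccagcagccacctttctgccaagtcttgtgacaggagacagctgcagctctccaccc
Cox6b1 had 12 CpGs in these bases and Cox6b2 had 7. Cox7a2 had 11 and Cox7a1 had 4. Cox8a had 10 and Cox8b had 1. Each common form thus had more CpGs than its restricted paralog.

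Promoters with sequences of the known regulators are shown next for 4 genes whose promoters had peaks in all 6 lists, with matches to GCGCANGCG (NRF1) and CCGGAAG (ETS), on either strand, in capitals.
Sdha, chr13:74350241-74350390, minus strand: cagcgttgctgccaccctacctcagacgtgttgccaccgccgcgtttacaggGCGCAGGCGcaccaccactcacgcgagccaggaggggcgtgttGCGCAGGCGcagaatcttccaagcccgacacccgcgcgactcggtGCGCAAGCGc
Sdhd, chr9:50603850-50603999, minus strand: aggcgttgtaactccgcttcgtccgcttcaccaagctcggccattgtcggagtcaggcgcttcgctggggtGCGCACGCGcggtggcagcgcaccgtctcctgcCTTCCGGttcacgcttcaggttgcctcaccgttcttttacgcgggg
Cox6a1, chr5:115348959-115349108, minus strand: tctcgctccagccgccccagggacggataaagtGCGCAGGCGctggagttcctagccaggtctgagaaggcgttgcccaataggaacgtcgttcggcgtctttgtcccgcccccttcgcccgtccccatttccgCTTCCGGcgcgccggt
Atp5h, chr11:115419920-115420069, minus strand: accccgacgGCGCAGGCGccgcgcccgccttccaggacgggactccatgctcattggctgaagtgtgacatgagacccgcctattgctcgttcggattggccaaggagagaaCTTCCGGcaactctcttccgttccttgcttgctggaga
Sdha, the flavoprotein of succinate dehydrogenase, had 3 matches to the NRF1 sequence. Sdhd, a membrane anchor of the same enzyme, Cox6a1, a complex IV subunit, and Atp5h, a stalk subunit of ATP synthase, each had 1 match to either sequence.

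Most oxidative phosphorylation genes had promoter peaks of all 3 TRs. A promoter was defined as the 2000 bp before each transcription start site (TSS) of a gene, and a peak that overlapped it by at least 1 base was counted. At E15.5, ARID1B had a peak at 73 of the 81 genes, against 60.8% of the 20726 other protein-coding genes. FOXP1 had a peak at 76, against 63.2%, and TCF7L2 at 74, against 59.0%. At E18.5, the counts were 72 for ARID1B, against 59.3%, 74 for FOXP1, against 56.5%, and 75 for TCF7L2, against 62.8%. All 3 TRs together were at 73 genes at E15.5, against 57.3% of the other genes, and at 72 at E18.5, against 54.8%. All 6 lists had a peak at 72 genes, which is 88.9%, against 53.8% of the other genes. This count depends on what is taken as a promoter peak, since with the summit itself required inside the promoter it fell to 38 genes, which is 46.9%, against 32.9%. No list had one at 4 genes, against 34.4% of the other genes.

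The promoter sequence searched had a median of 2633 bases for the oxidative phosphorylation genes and 4000 for the other genes. Among the former it was 3187 for the 72 genes in all 6 lists and 2000 for the restricted paralogs of complex IV, and its part in the counts was not tested. CpG content moved with the share. The CpG ratio, the number of CpGs over that expected from the C and G content of the 300 bp from 250 bp before to 50 bp after a TSS, had a median of 0.861 over the 81 genes and 0.708 over the other genes, taking the highest window of each gene. Of the 70 oxidative phosphorylation genes with a ratio of at least 0.6, 69 had a peak in all 6 lists, which is 98.6%, against 85.1% of the 11991 other genes with such a ratio. Of the 11 genes below 0.6, 3 had a peak in all 6 lists, against 10.8% of 8735 other genes. Both shares were thus closer together among CpG-rich promoters than over all genes, and the part of CpG content in the counts was not tested.

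**Figure D1:**
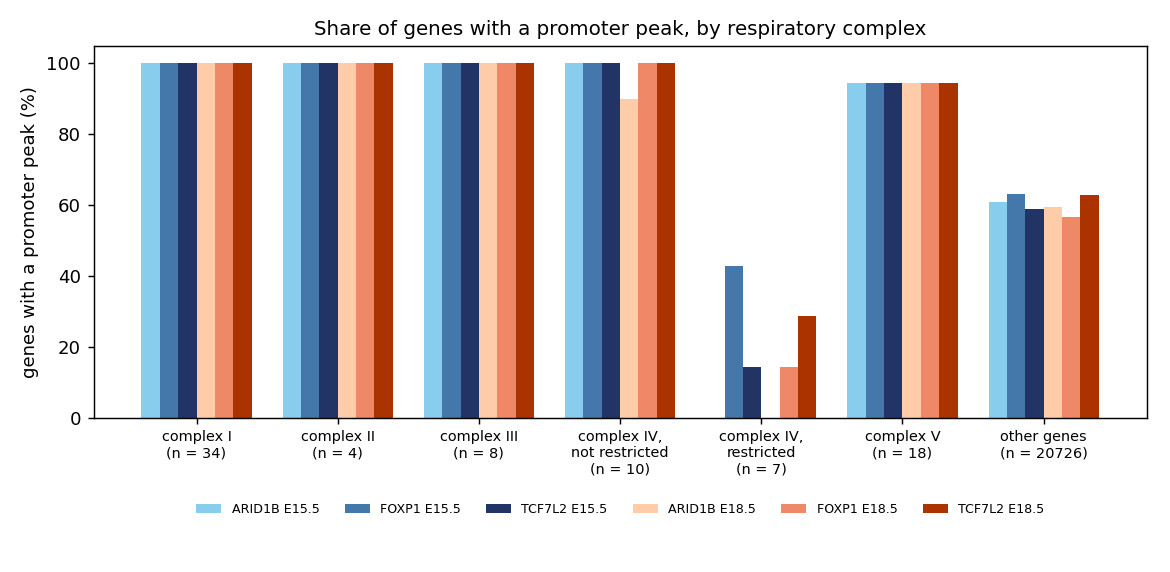
Bars give the percentage of genes with a promoter peak (vertical axis) in each of the 6 lists (colors) for complexes I to V, with complex IV split into restricted paralogs and the remaining genes, and for the 20726 other genes. Complexes I, II, and III stand at 100% in every list, the restricted paralogs have no bar for ARID1B, and the other genes lie between 56.5% and 63.2%.

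By complex, all 34 genes of complex I, all 4 of complex II, and all 8 of complex III had a promoter peak in every list. Complex V had 17 of 18, and complex IV had 9 of 17, which is 52.9% and close to the 53.8% of the other genes. The 9 genes outside this set were the 7 tissue-restricted paralogs of complex IV, Cox6b1, and the second gene model of Atp5o.

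The restricted paralogs had promoter peaks of FOXP1 and TCF7L2 only, with fold enrichments of 2.66 to 4.43. Fold enrichment is the number of reads over the peak summit relative to background, as listed by the authors. The background was 1 constant for each list, so the values are relative to a genome-wide level and not to the input reads at each site. Brackets give the 95% exact Poisson interval, which covers counting error only. Cox8b, Cox8c, and Cox7b2 had no promoter peak in any list, which is 3 of 7 (42.9%), against 34.4% of all other genes and 75.8% of the other genes with a CpG ratio below 0.6. FOXP1 at E15.5 had a peak at 3 of the 7, against 20.8% of those CpG-poor genes, and the other FOXP1 and TCF7L2 lists had one at 1 or 2, against 13.2% to 19.6%. The counts of 0 for ARID1B stand against 18.3% of the CpG-poor genes at E15.5 and 17.2% at E18.5, so the paralogs are not set apart from such promoters by these counts. Cox4i2 had a single one, of FOXP1 at E15.5, with a fold enrichment of 2.91 (1.87 to 4.34). Cox7a1 had a single one, of TCF7L2 at E18.5, with 2.96 (1.97 to 4.28). Cox6b2 had peaks in 3 lists, with 2.66 for FOXP1 at E15.5, 3.47 for TCF7L2 at E15.5, and 3.94 for TCF7L2 at E18.5. Cox6a2 had FOXP1 peaks of 4.43 at E15.5, then 3.79 at E18.5, whose summits lay at -2013 and -2023 bp from the TSS, just beyond the 2000 bp of the promoter. ARID1B had no promoter peak at any of the 7 in either stage, although at Cox6b2 an E18.5 peak with a fold enrichment of 3.37 began 29 bp downstream of the TSS. For Cox8b the nearest peak of any list was 2748 bp from the TSS, for Cox8c 19640 bp, and for Cox7b2 23545 bp.

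Of the 5 common counterparts on chromosomes 1 to 19, Cox4i1, Cox6a1, Cox7a2, and Cox8a had promoter peaks in all 6 lists and Cox6b1 in 5. The X-linked Cox7b, the common counterpart of Cox7b2, is an exception outside the 81 genes, where FOXP1 alone had promoter peaks at both stages, enriched 5.32-fold at E15.5, then 4.82-fold at E18.5. At E15.5, Cox4i1 had an ARID1B fold enrichment of 6.24 (4.88 to 7.87), a FOXP1 value of 15.6 (12.9 to 18.6), and a TCF7L2 value of 9.22 (7.40 to 11.3). At E18.5 it had 8.84 (6.81 to 11.3), 11.01 (8.68 to 13.8), and 8.32 (6.57 to 10.4). Cox7a2 had, in the same order, 7.30, 18.1, and 6.40 at E15.5, then 6.87, 11.4, and 7.55 at E18.5. Every value of these 2 genes was above every value of Cox4i2 and Cox7a1. Cox6a1 ranged from 5.26 to 12.3 and Cox8a from 4.21 to 11.6 over the 6 lists.

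Among the 5 common forms on chromosomes 1 to 19, Cox6b1 had the lowest values, and for TCF7L2 it lay near its restricted paralog. At E15.5, its ARID1B fold enrichment was 3.39 (2.42 to 4.64), its FOXP1 value 6.71 (5.04 to 8.76), and its TCF7L2 value 3.68 (2.59 to 5.09). At E18.5 it had 6.74 (4.96 to 8.95) for FOXP1 and 4.82 (3.52 to 6.45) for TCF7L2. Its ARID1B peak at E18.5, with a fold enrichment of 3.23, began 50 bp downstream of the TSS and so was outside the promoter. For TCF7L2, the intervals of Cox6b1 and Cox6b2 overlapped at both stages, with 3.47 (2.42 to 4.85) and 3.94 (2.78 to 5.44) for Cox6b2, and for FOXP1 at E15.5 they did not. For ARID1B at E15.5 and FOXP1 at E18.5, Cox6b1 had a promoter peak and Cox6b2 had none.

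**Figure D2:**
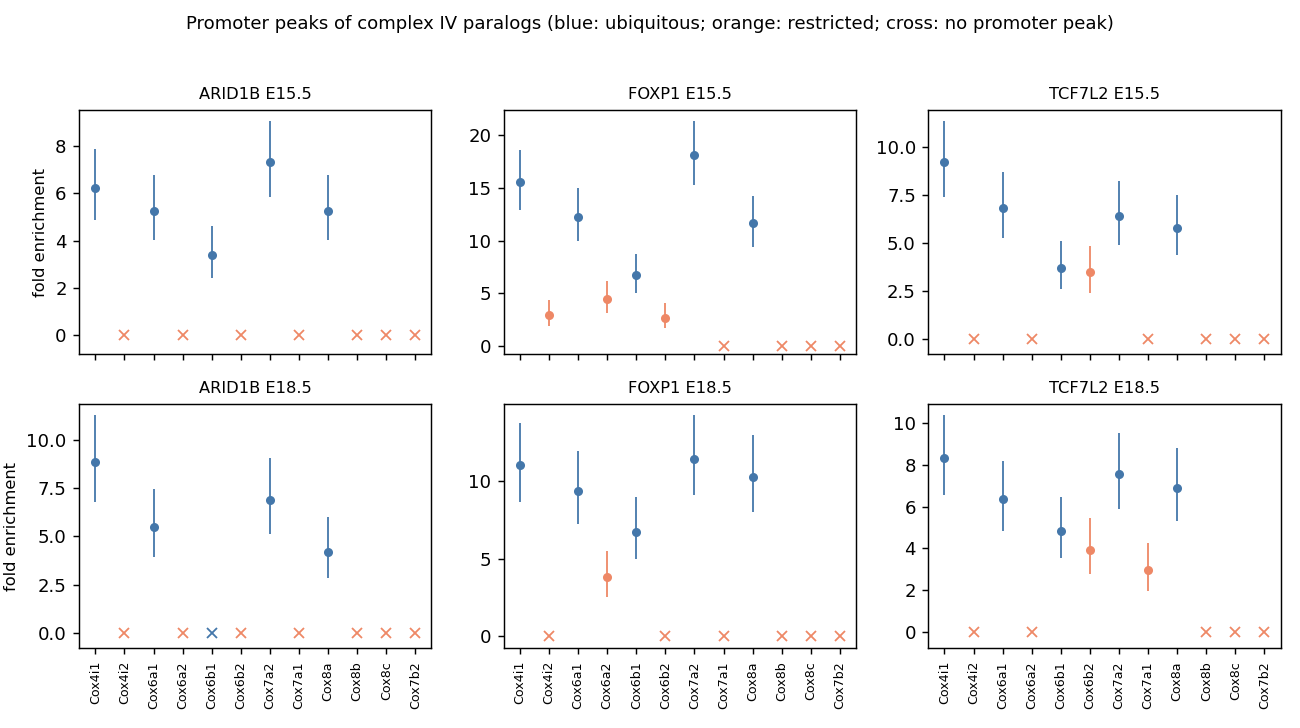
Points give the fold enrichment (vertical axis, linear) of the strongest promoter peak of each complex IV paralog (horizontal axis) in each list, with bars for the 95% counting interval and crosses, drawn at zero height, for genes without a promoter peak. Common forms are blue and restricted forms orange, and the highest restricted value is the 4.43 of Cox6a2 for FOXP1 at E15.5.

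The CpG ratio separated the same genes. It was below 0.6 at all 7 restricted paralogs, with a median of 0.460 and a highest value of 0.564 at Cox7b2, and above 0.6 at all 5 common forms, with a median of 1.03. Ndufb7 (0.521), Atp5j2 (0.562), and Ndufb2 (0.5997) were below 0.6 and still had a peak in all 6 lists. The second model of Atp5o, whose single TSS lies inside the other Atp5o gene, had a ratio of 0.0705, and its nearest peaks, 4110 to 4210 bp away, were those at the start of the other model.

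**Figure D3:**
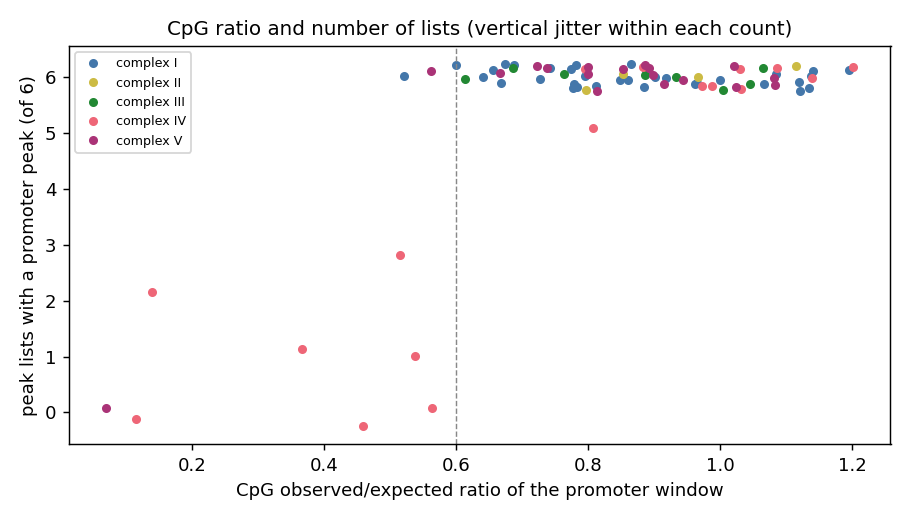
Each point is 1 of the 81 genes, with the CpG ratio of its promoter window on the horizontal axis, the number of lists with a promoter peak on the vertical axis (shifted slightly so that points can be seen), and color for the complex. To the right of the dashed line at 0.6, 69 of 70 genes are in all 6 lists, and the exception is Cox6b1 with 5.

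The median peak height of the oxidative phosphorylation genes was equal to or somewhat above that of the other genes with a peak. The strongest promoter peak of each gene was taken, and its percentile was computed among all genes on chromosomes 1 to 19 with a promoter peak in that list, which puts lists of different depth on 1 scale but does not remove the effect of depth on which genes are ranked. At E15.5, the median fold enrichment was 5.79 for ARID1B, against 5.26 for the other genes with a peak, 12.8 for FOXP1, against 10.8, and 6.50 for TCF7L2, against 6.50. At E18.5, it was 6.17 against 5.75 for ARID1B, 9.61 against 8.80 for FOXP1, and 6.79 against 6.68 for TCF7L2. The median percentiles, again for ARID1B, FOXP1, and TCF7L2, were 64.4, 67.0, and 50.6 at E15.5, then 61.3, 62.1, and 52.0 at E18.5. The genes thus stood above the middle of the ARID1B and FOXP1 lists and in the middle of the TCF7L2 lists. These ranks are among all genes with a peak in the list, including genes that had none in other lists. Among genes with a peak in all 6 lists, the percentile averaged over the lists had a median of 57.6 for the 72 oxidative phosphorylation genes. For the 11147 other genes in all 6 lists it was 55.6.

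Summits lay close to the TSS. The share of genes whose strongest peak had its summit within 250 bp of a TSS was 87.5% to 95.9% over the lists, against 78.6% to 88.3% for the other genes. The median distance was 51.5 to 67.5 bp, against 74 to 106 bp. Since a promoter ends at the TSS here, a summit just downstream of it was counted only through the upstream flank of its peak.

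Some of these promoters are shared with a neighbor, so that a peak cannot be assigned to 1 gene. Another protein-coding gene started within 1000 bp upstream on the opposite strand at 28 of the 81 genes (34.6%), against 11.2% of the other genes. All 28 were among the 72 genes with a peak in all 6 lists (38.9%), against 19.1% of the other genes with such peaks. At 31 genes, again all of them in all 6 lists (43.1% of the 72, against 24.5%), a strongest peak also touched the promoter of another protein-coding gene, which left 41 of the 72 genes in all 6 lists without such a neighbor. Ndufs6 shared its peak with Mrpl36 and Ndufb5 with Mrpl47, both genes of the mitochondrial ribosome. Sdhd shared its peak with Timm8b, a gene of mitochondrial protein import, and Atp5j, which encodes coupling factor 6 of ATP synthase, with Gabpa, the DNA-binding subunit of GABP.

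**Figure D4:**
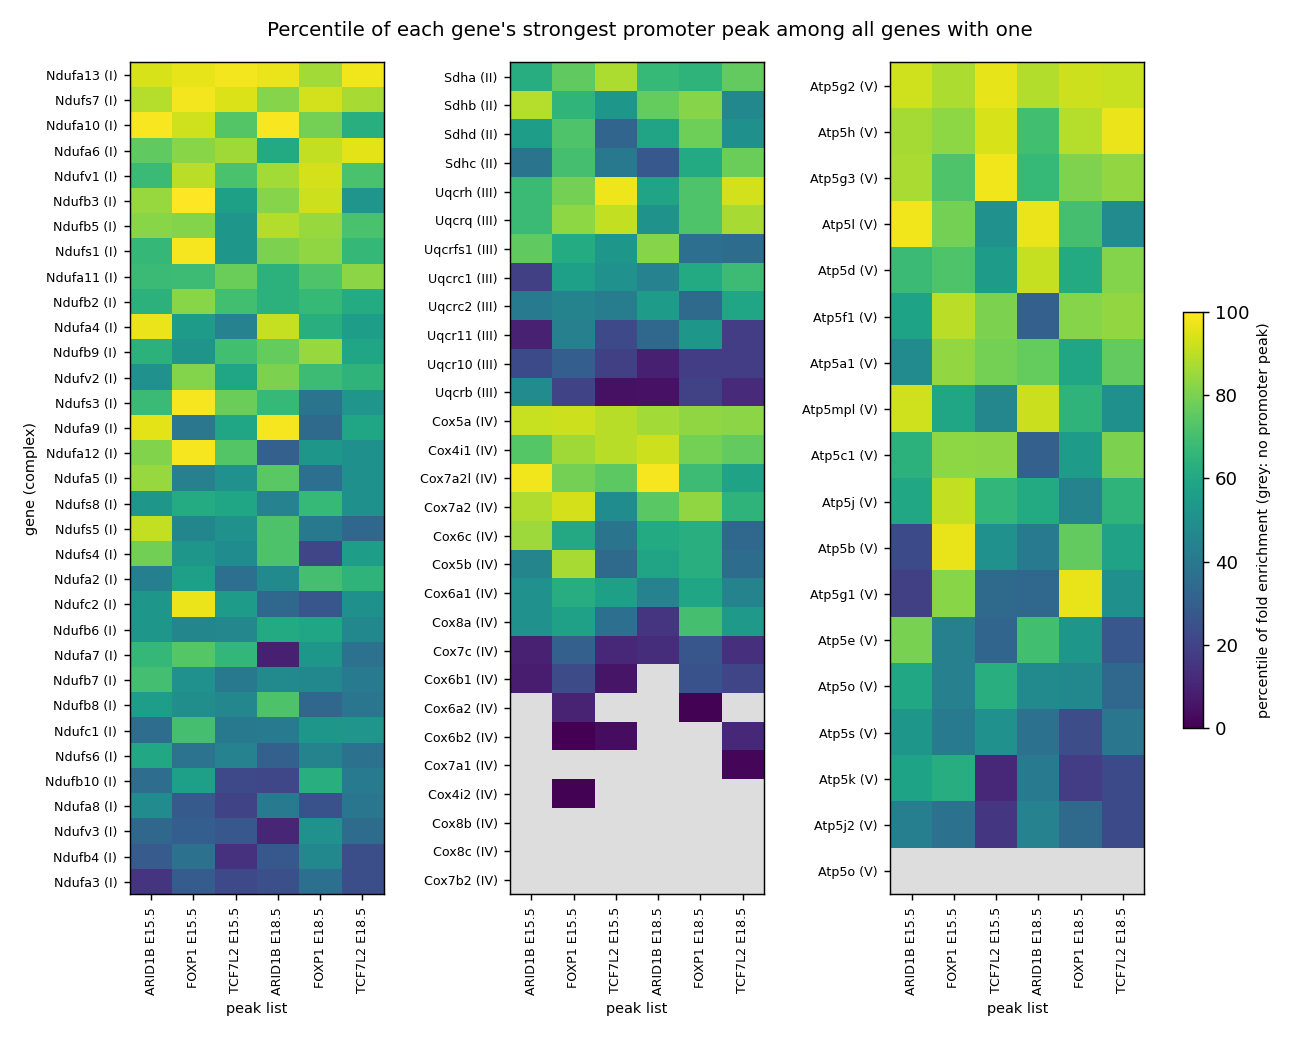
Colors give the percentile (0 to 100) of each gene's strongest promoter peak in each of the 6 lists (columns) among all genes with one, with genes (rows) sorted by mean percentile within their complex and grey for no promoter peak; all but 1 of the 81 genes are drawn. Grey is found at 8 complex IV genes and 1 Atp5o model, and the upper rows of each complex range from Sdha at a mean percentile of 72.3 to Ndufa13 at 94.9.

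In complex I, which takes electrons from NADH, Ndufa13 had the highest mean percentile over the 6 lists (94.9) and Ndufa3 the lowest (25.3); both encode accessory subunits. At E15.5, Ndufa13 had an ARID1B fold enrichment of 8.28 (6.70 to 10.1), a FOXP1 value of 21.5 (18.4 to 24.99), and a TCF7L2 value of 11.6 (9.57 to 13.97). At E18.5 it had 10.5 (8.29 to 13.2), 11.7 (9.33 to 14.6), and 12.0 (9.91 to 14.5). Its TCF7L2 values were the highest among the 81 genes at both stages. For FOXP1 at E18.5, another promoter peak, with its summit nearer to the TSS, had only 4.38. All 6 of the strongest Ndufa13 peaks also touch the promoter of Yjefn3, and those of FOXP1 at E15.5 and of TCF7L2 at both stages touch that of Tssk6. Of their summits, 5 lay between -767 and -647 bp from the Ndufa13 TSS, so they are not particular to this gene. Ndufa3 had 3.84, 7.85, and 4.94 at E15.5, then 4.63, 7.77, and 5.04 at E18.5, for ARID1B, FOXP1, and TCF7L2 in turn. Ndufa10, an accessory subunit, had the highest ARID1B values, 12.0 (10.1 to 14.2) at E15.5, then 12.6 at E18.5, and its TCF7L2 values were lower, 7.75 and 7.44.

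Complex II, succinate dehydrogenase, also works in the tricarboxylic acid (TCA) cycle and has no subunit encoded in mitochondria. Sdha, again with ARID1B, FOXP1, and TCF7L2 in turn, had fold enrichments of 5.70, 13.9, and 9.01 at E15.5, then 6.45, 9.83, and 8.32 at E18.5. Sdhb, the iron-sulfur subunit, had 7.39, 12.7, and 6.61 at E15.5, then 7.01, 11.3, and 6.46 at E18.5. The membrane anchors had 4.81, 13.3, and 5.98 at E15.5, then 4.77, 9.53, and 8.43 at E18.5 for Sdhc, and 5.44, 13.5, and 5.56 at E15.5, then 6.03, 10.9, and 6.68 at E18.5 for Sdhd. The FOXP1 values of the 4 genes lay near each other, from 12.7 to 13.9 at E15.5, while for ARID1B at E15.5 Sdhc was at a percentile of 38.4 and Sdhb at 88.8, and for TCF7L2 at E15.5 Sdhd was at 32.7 and Sdha at 87.6. The mean percentiles of the 4 genes lay between 52.6 for Sdhc and 72.3 for Sdha.

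In complex III, which passes electrons to cytochrome c, Uqcrh, the hinge protein, had the highest mean percentile (78.1) and Uqcrb the lowest (18.3). In the same order of TRs, Uqcrh had 5.97, 14.4, and 11.1 at E15.5, then 6.03, 10.4, and 10.3 at E18.5. Uqcrb had 5.17, 6.33, and 3.58 at E15.5, then 3.51, 6.15, and 4.05 at E18.5. Uqcrb was thus below Uqcrh in every list.

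In complex IV, cytochrome c oxidase, Cox5a had the highest mean percentile of the genes in all 6 lists (87.6) and Cox7c the lowest (17.5). Cox5a had 7.84, 17.5, and 9.22 at E15.5, then 7.85, 11.4, and 8.87 at E18.5, and Cox7c had 3.48, 8.10, and 4.21 at E15.5, then 4.07, 6.88, and 4.16 at E18.5.

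In complex V, the 3 genes Atp5g1, Atp5g2, and Atp5g3 encode the same mature subunit c, which forms the rotating ring of the synthase, with different import sequences. Atp5g2 had the highest mean percentile of the complex (91.5), with 8.01, 16.1, and 10.6 at E15.5, then 8.13, 12.8, and 9.96 at E18.5. Atp5g3 had 7.21, 13.5, and 11.3 at E15.5, then 6.45, 11.2, and 8.98 at E18.5. Atp5g1 had low ARID1B values, 4.01 (2.95 to 5.35) at E15.5, then 5.05 (3.56 to 6.97) at E18.5, and the highest FOXP1 value of the 81 genes at E18.5, 14.1 (11.4 to 17.2). For ARID1B at E15.5, the interval of Atp5g1 lay below that of Atp5g2, 6.46 to 9.83, while at E18.5 their intervals overlapped. Atp5j2, subunit f, had the lowest mean percentile of the complex (33.0).

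Between the stages, differences in percentile were small at the median and wide at the extremes. They compare lists of unequal depth and length, with, for FOXP1, 64080 peaks at a background of 6.90 reads at E15.5 and 24890 peaks at 2.81 reads at E18.5, and were not tested. The median difference in mean percentile, E18.5 minus E15.5, was -2.50 over the 72 genes in all 6 lists and -0.746 over the other genes. Ndufa12 had the lowest difference (-39.8), followed by Ndufa7 (-35.8) and Ndufc2 (-31.5), all accessory subunits of complex I. Uqcrc1, a core subunit of complex III, had the highest (16.04), followed by Ndufa2 (15.9). Ndufa12 had an ARID1B percentile of 81.2 at E15.5 but 30.5 at E18.5, with overlapping intervals of fold enrichment, 5.27 to 8.36 and 3.44 to 6.80. Its FOXP1 percentile was 98.5 at E15.5 but 52.8 at E18.5, and here the fold enrichments of 33.4 (29.5 to 37.7) and 8.95 (6.87 to 11.5) had intervals that did not overlap. Uqcrc1 had an ARID1B fold enrichment of 4.01 (2.95 to 5.35) at E15.5, then 5.47 (3.91 to 7.46) at E18.5, which overlap as well.

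FOXP1 at E15.5 had a group of strong peaks at these genes. A limit of 20 on fold enrichment, chosen after the values were seen, was reached by 8 of the 76 oxidative phosphorylation genes with a peak (10.5%), against 4.23% of the other genes with one. In the other 5 lists, it was reached by none of them and by 0.0556% to 0.282% of the other genes with a peak, so the count of 0 is not particular to these genes. Neither are the strong peaks at E15.5, since 17 of 78 mitochondrial ribosome genes with a FOXP1 peak (21.8%) and 4 of 46 assembly factor genes (8.70%) reached the limit as well. Ndufb3, an accessory subunit, had 41.5 (37.2 to 46.3), followed by Ndufs1 with 34.0, Ndufa12 with 33.4, Ndufs3 with 33.3, Ndufs7 with 32.3, Ndufc2 with 25.4, Atp5b, the catalytic beta subunit of ATP synthase, with 22.3, and Ndufa13 with 21.5. Complex I held 7 of the 8 and 34 of the 76 genes with a peak. The Ndufa13 summit lay 823 bp downstream of its TSS, in the peak that also touches Tssk6 and Yjefn3. In FOXP1 at E18.5 the strongest promoter peaks of the same genes had 6.88 to 12.9, at percentiles of 26.8 to 93.0. For Ndufa13 this was a different peak, with its summit at -767 bp, and the E18.5 peak nearest to its TSS had 4.38. The E18.5 FOXP1 list was the shallowest, with a background of 2.81 reads against 6.90 at E15.5, and what depth contributes to the difference was not tested.

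**Figure D5:**
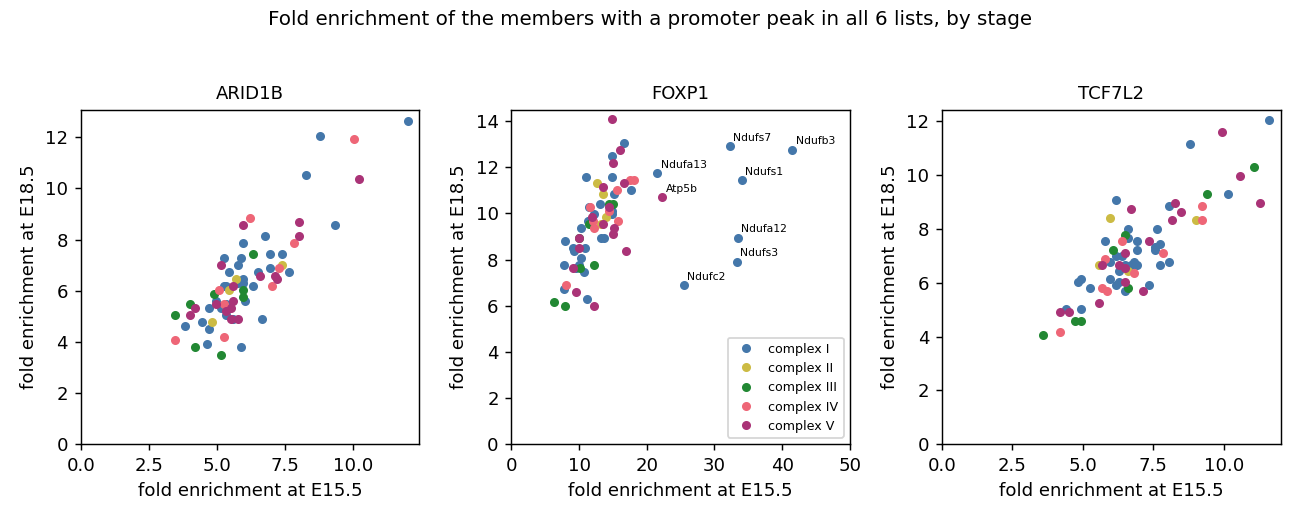
Each point is 1 of the 72 genes in all 6 lists, with fold enrichment at E15.5 on the horizontal axis and at E18.5 on the vertical axis, 1 panel per TR and a color per complex; axis ranges differ between panels. In the FOXP1 panel the 8 named genes lie to the right of 20 at E15.5 and between 6.88 and 12.9 at E18.5. The strongest promoter peak is drawn, which for Ndufa13 and FOXP1 is a different peak at each stage.

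The strong FOXP1 peaks at E15.5 often held a short sequence, GGAACC, which was picked from 6-base words frequent in these same peaks and is therefore a description only. In the 201 bp around the summit it was found, on either strand, at 165 of 448 promoter summits with a fold enrichment of at least 20 (36.8%) and at 1573 of 11325 below 20 (13.9%), over all genes. In FOXP1 at E18.5, 2 of 29 summits at or above 20 held it. Of the 8 genes above, 4 held it, and it is shown in capitals with 10 bases on either side, with coordinates of GRCm38.p6.
Ndufa12, chr10:94198945-94198970, plus strand: ttgacgagcaGGAACCtccaaacggt
Ndufs3, chr2:90904762-90904787, minus strand: gctcagatccGGAACCtctgcttccc
Ndufc2, chr7:97399993-97400018, plus strand: ttagaagcccGGAACCtcgcgtgcag
Ndufa13, chr8:69901717-69901742, minus strand: caaattatagGGAACCtcctgggtga
Its centre lay 2 bp from the summit at Ndufs3 and 5 bp at Ndufa13, and 41 and 53 bp at Ndufa12 and Ndufc2. All 4 continue with TC after the capitals.

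Sequences of the known regulators of respiratory genes were more frequent at these promoters than at other genes. The forkhead sequence and the sequence of TCF and LEF factors that were searched were not. No sequence was searched for ARID1B, for which the study had no consensus motif. The study reported the FOXP1 and TCF7L2 motifs as enriched in their own peaks over scrambled sequence, which is a different comparison. The 300 bp window was searched on both strands at every TSS, and a gene was counted if any window matched. GCGCANGCG (NRF1) was found at 25 of 81 genes (30.9%), against 11.8% of the other genes, CCGGAAG (ETS) at 24 (29.6%), against 17.8%, and AAGATGGCG (YY1) at 12 (14.8%), against 3.35%. At least 1 of these 3 was found at 46 genes (56.8%), against 28.1%. Among genes with a peak in all 6 lists, the differences in percentage points were smaller. NRF1 matches were at 34.7% of the 72 oxidative phosphorylation genes and 20.4% of the 11147 other genes, ETS matches at 31.9% and 28.5%, YY1 matches at 16.7% and 5.86%, and at least 1 of the 3 at 62.5% and 45.9%. The 46 were 20 of 34 genes of complex I, 3 of 4 of complex II, 4 of 8 of complex III, 6 of 17 of complex IV, and 13 of 18 of complex V. None of the 3 sequences was found at the 7 restricted paralogs, none of which had a peak in all 6 lists. Of the 20726 other genes, 5814 held at least 1 of the 3, and 5117 of these were among the 11147 in all 6 lists. The paralogs are thus not set apart by this count from other genes without a peak in all 6 lists. TGTTTAC, a forkhead sequence, was found at 6 genes (7.41%), against 9.30%, and ATCAAAG, bound by TCF and LEF factors, at 3 (3.70%), against 10.0%. GGGGCGGGG, bound by SP and KLF factors, was found at 13 (16.05%), against 22.3%, CCAAT, bound by NFY, at 48 (59.3%), against 61.9%, and TATAAA at 29 (35.8%), against 30.8%. A match shows only that the letters are there.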

How the data were processed

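Peak lists of ChIP-seq in mouse cortex were analysed, 1 per TR and stage. Per the methods and the submitters' processing notes, the authors used BWA 0.7.15 with GRCm38 (mm10) as the reference, SAMtools as the filter, and MACS2 2.2.7 as the caller of narrow peaks, on what the methods describe as merged replicates against input, without model or local background and with a read extension of 200 bp. Whether duplicates were removed was not stated in the sources used here. The deposited lists hold a fold enrichment at the summit, which is a ratio with 1 added to reads and background, −log10 of its p-value and of its q-value, and a score that the authors' caller made from the q-value; the score and the q-value were not used.

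Promoters, shares, percentiles, and motifs were computed with Python 3.11.15, pandas 2.3.3, and scipy 1.17.1 from GENCODE vM21, and overlaps were checked on simulated peaks. The background of each list and the value of 1 read were recovered from pairs of fold enrichment and p-value, which gave 2.81 to 8.63 background reads and 26.3 to 80.7 M reads in the smaller library. Intervals cover counting error only. Of the 80 symbols, 63 were in the RefSeq promoter table of GRCm38.p6.

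The genes, the gene lists, and the settings were chosen with earlier results of these data known. Genes were named if they lacked a promoter peak in any list, belonged to the complex IV paralogs, subunit c genes, or complex II, had the highest or lowest mean percentile of a complex, were among the 3 with the largest difference between stages in either direction, or had the highest fold enrichment of a list. Other genes are named as neighbors, as members of a fixed list, or with the limit of 20, after their values were seen. The values of 1 gene that met the rule are not reported here. Alternatives were other promoter windows, overlaps, TSS sets, p-values, and list sizes.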

Additional observations from a re-analysis of the deposited data

Results flagged for a closer look

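Signal appeared in data that the comparisons did not use. The mitochondrial genome, which encodes other subunits of complexes I, III, IV, and V, had peaks in every list. At E15.5 there were 3 peaks for ARID1B, 2 for FOXP1, and 3 for TCF7L2, with highest fold enrichments of 23.7, 50.8, and 29.8. At E18.5 there were 4, 2, and 4, with 28.6, 59.1, and 29.4. Mitochondrial DNA is present in many copies per cell, and the input signal over it is not in the lists, so what copy number contributes was not tested.

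Among X-linked genes of the same families, which the rule left out, Ndufa1 had a promoter peak in 5 lists, with fold enrichments of 3.21 to 4.68 and none for ARID1B at E18.5. Ndufb11 had one in 2 lists, with 4.68 for FOXP1 at E15.5 and 4.27 for TCF7L2 at E18.5. Cox7b, the common counterpart of Cox7b2, had one in 2 lists, with 5.32 and 4.82 for FOXP1 at E15.5 and E18.5.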

How the results depend on the processing

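The 9 counts of genes with a promoter peak were recomputed under 7 alternatives. Of the 63 values, 60 were within 1.5 times the reported count, and in all 63 the share was above that of the other genes under the same alternative. The 3 values beyond that came from requiring the summit inside the promoter, which leaves out peaks with a summit downstream of the TSS. It gave 42 genes with all 3 TRs at E15.5, against 39.0% of the other genes, 45 at E18.5, against 37.2%, and 38 in all 6 lists, against 32.9%. A −log10 p limit of 15 on the peaks gave 54 genes in all 6 lists, against 34.3%, and taking the 24526 strongest peaks of each list gave 58, against 36.6%. At most 3 restricted paralogs had a peak in a list under any alternative, and none had one in all 6. Among other genes with a CpG ratio of at least 0.6, the share with a peak was 88.1% to 94.3% per list, against 56.5% to 63.2% of all other genes. Taking the peak with the summit nearest to a TSS moved the median fold enrichment in 1 list, from 9.61 to 9.53 for FOXP1 at E18.5. The lowest fold enrichment listed was 2.33 to 3.21, highest in the shallowest list, FOXP1 at E18.5, so weaker binding could not be detected. No paired analysis was possible because there is 1 list per TR and stage, and for the same reason leaving out a replicate was not run.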

Other observations

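Genes that build and control the respiratory chain also had promoter peaks in most cases. Of 47 assembly factors, which insert cofactors or join subunits, 46 had a peak in all 6 lists, and Sdhaf1 had none in any. Among them, Bcs1l, which inserts the Rieske protein into complex III, had fold enrichments of 15.6 and 14.4 for TCF7L2 at E15.5 and E18.5. Of 78 genes of mitochondrial ribosomal proteins, all had a peak in all 6 lists. Of 12 genes of TCA cycle enzymes, 11 did, and Suclg2 lacked one for ARID1B at E18.5. The same background of 53.8% of other genes applies to these counts and to those of the next paragraph. Among other genes with a CpG ratio of at least 0.6 it was 85.1%. The CpG ratio of these pathway genes was not compared.

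Of 17 regulators of mitochondrial gene expression, 15 had a peak in all 6 lists. Nrf1 had a mean percentile of 92.5 and Yy1 of 87.6, and Tfam, which packages mitochondrial DNA, had 64.6. Ppargc1a, a coactivator induced in tissues of high oxidative demand, had weak peaks in 4 lists, with fold enrichments of 2.95 to 3.54, and Mterf1a had none. Of Cycs, Cyc1, Ndufab1, and Ndufa4l2, electron carriers and subunits outside the rule, all 4 had a peak in all 6 lists. Cycs, the gene of somatic cytochrome c, had fold enrichments of 4.73 to 13.2 over the 6 lists.

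Across the 72 oxidative phosphorylation genes in all 6 lists, Spearman's rho of fold enrichment between pairs of lists was 0.369 to 0.769, and across all 11219 genes in all 6 lists it was 0.566 to 0.896. These are correlations across genes, which are not independent replicates and share library, depth, and base composition.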
